A study of Mus musculus with 55 samples.

Results

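The early response of mature neurons to bicuculline alone was measured 15 min after the drug was added. Of 55 samples in the series, 5 entered this comparison, all from the experiment that compared stimuli: 2 libraries of 21DIV (days in vitro) neurons given bicuculline (Bic, 50 µM) for 15 min and 3 libraries of untreated 21DIV neurons (basal). They were chosen by their sample labels. All 5 came from primary cultures of cortex and hippocampus of mouse embryos of embryonic day 16 to 17.5, of the outbred CD1 strain and mixed sex per the study's methods, and no silencing with tetrodotoxin preceded the drug. Each culture pools embryos and mixes cell types, so a level is an average over neurons and glia, and fewer cells of a type and less RNA per cell cannot be told apart. The labels do not say whether replicates were separate cultures, so the spread between libraries behind the p-values may be technical. That spread was estimated in 1 fit over all 27 libraries of the experiment, other conditions included, and not from these 5 alone. The libraries were 3′ end libraries made by CEL-Seq2 and deposited as counts per transcript. Counts on genes were 2821118 and 1177500 in the Bic libraries and between 2613680 and 3476123 in the basal libraries. Values below are CPM, counts relative to the size of the library, scaled by the TMM factors of edgeR, and a change is given as log2 fold change ± its standard error (SE), Bic minus basal, with the Benjamini-Hochberg adjusted p of edgeR's quasi-likelihood test over all genes. Genes that changed 1.5-fold or more with an adjusted p below 0.05 are called differentially expressed (DEGs).

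Bicuculline blocks the GABA-A receptor, the chloride channel by which inhibitory neurons restrain their targets. In a culture that holds excitatory and inhibitory synapses, its blockade releases bursts of glutamate-driven firing, and calcium that enters through NMDA receptors and voltage-gated channels activates CaM kinases and the ERK cascade. These kinases phosphorylate transcription factors that are already present, such as CREB, SRF with its ELK partners, and MEF2, and so turn on immediate early genes (IEGs) without new protein synthesis. Many IEGs encode transcription factors, which then act on later genes, while others act directly at synapses, in signalling or outside the cell.

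Of 12027 genes tested, 411 (3.42%) were DEGs after 15 min in Bic. Of these, 289 were higher (2.4% of tested genes) and 122 were lower (1.01%). The rises were on median 1.95-fold and the falls 1.86-fold, 126 rises and 46 falls reached 2-fold, and 25 rises and 3 falls reached 4-fold. In 5 rises every basal library had 3 or fewer counts, and in 2 falls both Bic libraries did, so the size of those changes is not resolved. The DEGs nearest the threshold changed 1.503-fold upward and 1.5004-fold downward. In 408 of the 411 DEGs the Bic and basal libraries did not overlap. Of all tested genes, 16.9% had both Bic libraries above all basal libraries and 17.9% had both below. The DEGs were called on these same values, so a lack of overlap, here or in a gene below, is no separate support. Among the rises were Krt6a, Arc, Nptx2, Inhba, Fndc9 and Npas4, and among the falls Car6, Crebrf and Ccdc28a. The count rested on the deeper Bic library more than on any other single library: without Bic replicate 2 it was 136 (121 higher, 15 lower). It was also lower by more than 1.5 times without basal replicate 1 (265 DEGs) and without basal replicate 5 (249). The library names carry a letter whose meaning is not given. Both Bic libraries and basal replicate 5 carry B and the other basal libraries A, and against the basal library with the letter B alone 261 genes were called (182 higher, 79 lower).

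The genes named below held up to different degrees. Of 88 called genes that are named, 31 stayed under an adjusted p of 0.05 in all 17 alternatives, among them Arc, Npas4, Fosb, Egr4, Nr4a1, Gadd45g, Ptgs2, Dusp6, Nptx2, Inhba, Bdnf, Acan, Krt6a, Fndc9, Sgk1, Nnat, Gfap, Aldoc and Ccdc28a. Without Bic replicate 2, 51 of the 88 missed that threshold. These included Fos (0.97, adjusted p = 0.098), Junb (0.70, adjusted p = 0.4), Egr1 (0.47, adjusted p = 0.43) and Crebrf (-1.48, adjusted p = 0.057), the autophagy genes called below, and 11 of the 12 largest falls. Without Bic replicate 3, 20 of the 88 missed it, and 20, 6 and 18 did so without basal replicates 1, 2 and 5. All 88 kept their direction.

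**Figure D1:**
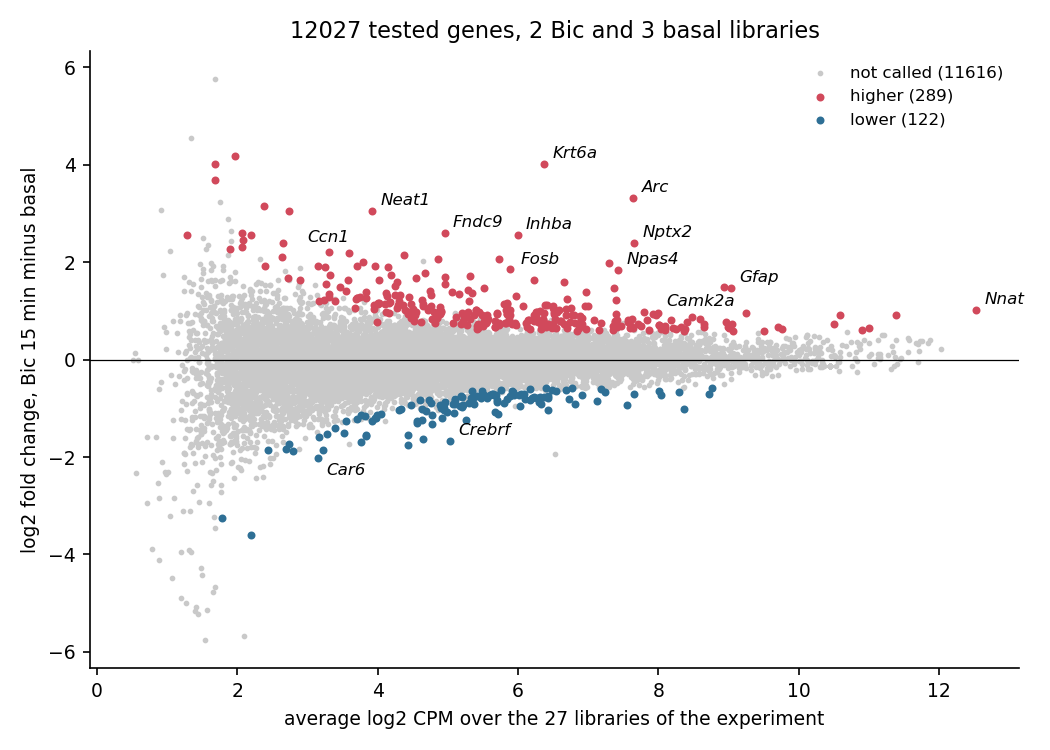
Log2 fold change, Bic 15 min minus basal, of 12027 tested genes (vertical axis) against average log2 CPM over the 27 libraries of the experiment (horizontal axis). Red points are the 289 genes called higher and blue points the 122 called lower, and Nnat lies farthest right, the most abundant gene among the rises.

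The largest rise among DEGs with an average log2 CPM of at least 3 was that of Krt6a, a type II keratin of intermediate filaments (chr15:101689928-101694305, GRCm38). Its level was 204 and 217 CPM in the 2 Bic libraries and 10.9, 16.7 and 11.8 CPM in the 3 basal libraries. The groups were far apart, a 16.1-fold rise (4.01 ± 0.28, adjusted p = 3e-13). Keratin 6 genes have near-identical copies, so the assignment of these reads within the family is uncertain. Arc, whose protein acts in dendrites in the removal of AMPA receptors (chr15:74669081-74672570), was at 363 and 243 CPM in Bic and at 25.5, 35.7 and 32.2 CPM in basal libraries. This was a 9.92-fold rise (3.31 ± 0.18, adjusted p = 1.1e-16), the smallest adjusted p of the comparison. Fndc9, a fibronectin type III domain gene of little known function, was at 85.2 and 102 CPM in Bic against 12.03, 26.8 and 7.202 CPM (2.60 ± 0.27, adjusted p = 1.9e-08). Neat1, the nuclear long noncoding RNA that scaffolds paraspeckles, was at 10.4 and 9.002 CPM against 0.287, 2.23 and 1.14 CPM (3.06 ± 0.66, adjusted p = 0.0035), close to the limit of detection in the basal libraries.

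**Figure D2:**
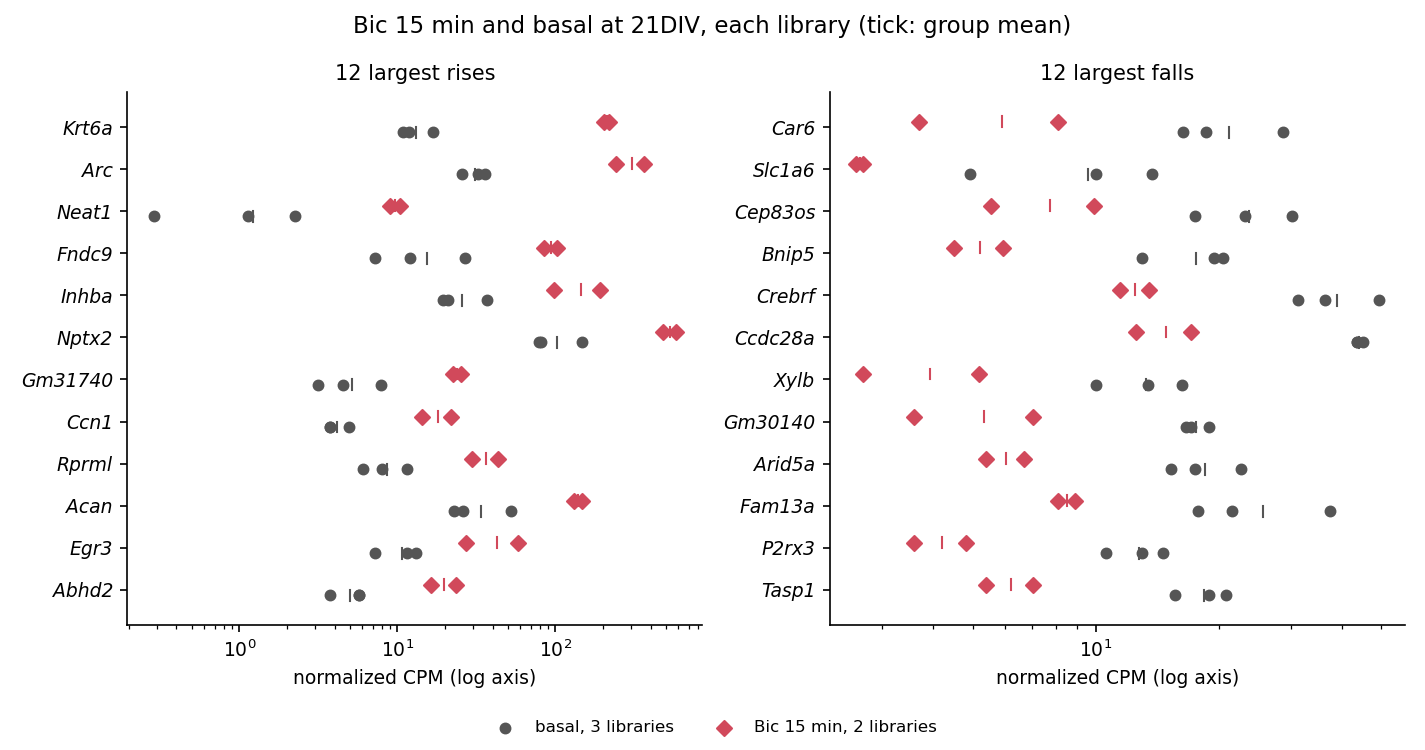
Normalized CPM (log axis) in each library for the 12 largest rises (left) and 12 largest falls (right) by log2 fold change among DEGs with average log2 CPM of at least 3. Diamonds are the 2 Bic libraries, circles the 3 basal libraries and ticks the group means. The genes were called on these same values, so a gap between the groups is no separate support.

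Transcription factors of the IEG class stood out among the rises. Of 26 tested members of the inducible transcription factor list, 13 were called higher and 0 lower, against 2.4% and 1.01% of all tested genes. A positive log2 fold change was seen in 25, and the median was 0.86 against -0.01 over all tested genes. This list and those below were chosen with earlier results of these data known. Without Bic replicate 2, 5 members were called. Npas4, a neuronal factor that depends on calcium entry and acts on inhibitory synapses (chr19:4984353-5003439), was at 275 and 217 CPM in Bic and at 81.4, 67.4 and 57.996 CPM in basal libraries (1.84 ± 0.15, adjusted p = 7.3e-11). Both Bic libraries exceeded the highest basal library by more than the spread within either group. Fosb, a Fos-family partner of Jun proteins in AP-1 (chr7:19302696-19310118), was at 70.4 and 51.3 CPM against 15.5, 17.9 and 18.2 CPM (1.87 ± 0.24, adjusted p = 1.7e-06). Fos itself (chr12:85473890-85477274) was at 100.4 and 87.3 CPM against 37.5, 48.0 and 51.2 CPM (1.06 ± 0.21, adjusted p = 0.0017). Bic and basal libraries did not overlap in either gene, and the rises were 3.65-fold for Fosb and 2.09-fold for Fos.

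Zinc finger factors of the EGR family moved with them. Egr3 was at 57.8 and 27.01 CPM in Bic against 13.2, 11.5 and 7.202 CPM (2.06 ± 0.29, adjusted p = 1.5e-05). Egr4 was at 77.0 and 63.9 CPM against 34.4, 32.4 and 28.8 CPM (1.16 ± 0.18, adjusted p = 6e-05). Egr1 was at 182 and 94.5 CPM against 69.9, 76.3 and 62.5 CPM (1.04 ± 0.20, adjusted p = 0.00086), and Bic replicate 2 stood well above replicate 3. Egr2 had at most 1 count in these libraries and was not tested, and nothing is read from this low count. The nuclear orphan receptor Nr4a1 was at 49.6 and 42.3 CPM against 17.2, 19.0 and 18.6 CPM (1.36 ± 0.23, adjusted p = 0.00014), and its relative Nr4a2 was called too (1.13 ± 0.34, adjusted p = 0.045). The third member, Nr4a3, was already abundant in basal neurons, at 152, 126 and 162 CPM, and stood at 209 and 185 CPM in Bic, which did not pass the test (0.43 ± 0.13, adjusted p = 0.056).

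The other called factors included AP-1 partners and a regulator of the IEGs. Fosl2, a Fos-related AP-1 subunit, was at 168 and 149 CPM against 60.7, 76.7 and 86.8 CPM (1.10 ± 0.18, adjusted p = 0.00016), and Junb, a Jun-family subunit, was at 61.9 and 42.3 CPM against 25.8, 23.4 and 30.3 CPM (1.03 ± 0.24, adjusted p = 0.0087). Srf, serum response factor, which binds the CArG box of many IEGs, was at 68.9 and 55.8 CPM against 33.5, 27.9 and 38.7 CPM (0.93 ± 0.20, adjusted p = 0.0036). Csrnp1, a nuclear factor, rose by 1.64 ± 0.39 (adjusted p = 0.01), and Klf10, a Krüppel-like repressor, by 1.05 ± 0.27 (adjusted p = 0.02). Jun did not separate from basal, at 352 and 367 CPM against 329, 322 and 402 CPM (0.03 ± 0.15, adjusted p = 0.95), and this sign turned under other settings. Atf3 and Klf4, a stress-inducible factor and a Krüppel-like factor, had values of 0.22 (adjusted p = 0.66) and 0.49 (adjusted p = 0.69).

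Early genes that act elsewhere in the cell formed the other large group. Of 27 tested early effector genes, 14 were called higher and 1 lower, against 2.4% and 1.01% of all tested genes. The median was 0.82 against -0.01 over all tested genes. Without Bic replicate 2 the called members numbered 7. Gadd45g, of a stress-sensor family tied to DNA demethylation and growth arrest, was at 280.0 and 215 CPM in Bic and at 61.6, 76.7 and 52.3 CPM in basal libraries (1.98 ± 0.19, adjusted p = 1.7e-09). Its relative Gadd45b did not pass the test, at 11.9 and 9.002 CPM against 7.16, 5.58 and 9.10 CPM (adjusted p = 0.42). Ptgs2, the inducible prostaglandin synthase COX-2, was at 182 and 173 CPM against 54.2, 79.3 and 43.2 CPM (1.60 ± 0.24, adjusted p = 2.8e-05). Ccn1, a secreted matrix-associated protein, was at 21.9 and 14.4 CPM against 3.72, 3.72 and 4.93 CPM (2.20 ± 0.40, adjusted p = 0.00053). AU023762 was at 17.04 and 8.10 CPM against 1.72, 2.23 and 0.379 CPM (3.15 ± 0.58, adjusted p = 0.00064), so that the lowest Bic library was still above every basal library.

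Signalling regulators of the list rose from widely different basal levels, with group means from 3.57 CPM (Arl4d) to 2506 CPM (Rgs4). Rgs4, which speeds GTP hydrolysis by G proteins, was among the most abundant rises, at 4043 and 3777 CPM against 2549.7, 2892 and 2076 CPM (0.64 ± 0.12, adjusted p = 0.0012). Rgs2, of the same family, was at 666 and 664 CPM against 399, 433 and 256 CPM (0.87 ± 0.16, adjusted p = 0.00041). The small GTPases of the RAS-like group Rasl11a and Rasl11b rose by 1.18 ± 0.32 (adjusted p = 0.025) and 0.82 ± 0.17 (adjusted p = 0.0029). Ccdc184 was at 215 and 207 CPM against 96.3, 107 and 93.2 CPM (1.10 ± 0.17, adjusted p = 6.1e-05). Fbxo33, an F-box protein of ubiquitin ligases, Trib1, a pseudokinase, Pim1, a serine/threonine kinase, and Arl4d, an ARF-like GTPase, rose by 0.98 ± 0.15, 1.40 ± 0.30, 1.78 ± 0.40 and 1.55 ± 0.40. Homer1, whose short form is activity-induced, was at 274 and 218 CPM against 179.9, 193 and 200.1 CPM and did not pass the test (0.38 ± 0.14, adjusted p = 0.14). The antiproliferative gene Btg2 and the nuclear IEG product Ier2 stayed just outside it. Btg2 was at 60.4 and 47.7 CPM against 27.5, 37.6 and 42.1 CPM (0.64 ± 0.21, adjusted p = 0.071), and Ier2 was at 53.0 and 45.9 CPM against 26.4, 30.9 and 32.6 CPM (0.75 ± 0.23, adjusted p = 0.058). The member called lower was Ppp1r15a, the phosphatase subunit that restores translation after stress, at 31.9 and 30.6 CPM against 64.8, 60.3 and 52.3 CPM, a 1.89-fold fall (-0.92 ± 0.23, adjusted p = 0.015).

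Some inhibitors that close the ERK cascade were among the rises. Of 15 tested MAPK feedback inhibitors, 4 were called higher and 0 lower, against 2.4% and 1.01% of all tested genes. The median was 0.68. Without Bic replicate 2, 3 members were called. Dusp6, an ERK phosphatase of the cytoplasm, was at 167 and 179 CPM against 80.8, 87.5 and 70.1 CPM (1.12 ± 0.17, adjusted p = 4.7e-05). Dusp1, a nuclear MAPK phosphatase, was at 81.1 and 91.8 CPM against 39.8, 39.1 and 56.1 CPM (0.93 ± 0.19, adjusted p = 0.002). The phosphatase Dusp4 rose by 1.22 ± 0.30 (adjusted p = 0.014), and Spry2, an inhibitor of receptor tyrosine kinase signalling, by 1.02 ± 0.20 (adjusted p = 0.0014). Of the 22 tested genes of the ERK cascade itself, from RAS to SRF and ELK, 2 were called higher and 0 lower. Without Bic replicate 3, 1 was called. The called share was 9.09%, against 3.42% of all tested genes, and the median was -0.07. Among the called members was Elk3, an ETS partner of SRF, at 32.6 and 26.1 CPM against 7.16, 9.68 and 10.2 CPM (1.75 ± 0.27, adjusted p = 6e-05).

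Several genes known as later or secreted activity products were already raised. Of 19 tested members, 7 were called higher and 0 lower, against 2.4% and 1.01% of all tested genes. The median was 0.66, and without Bic replicate 2 there were 3 called members. Nptx2, a secreted pentraxin that gathers AMPA receptors at excitatory synapses onto interneurons (chr5:144545887-144557478), was at 581 and 477 CPM in Bic and at 78.2, 147 and 80.7 CPM in basal libraries, a 5.23-fold rise (2.39 ± 0.21, adjusted p = 2.3e-10). Inhba, a subunit of activin A (chr13:16004256-16031609), was at 193 and 98.1 CPM against 20.9, 36.8 and 19.3 CPM (2.55 ± 0.24, adjusted p = 8.1e-10). Bdnf, the neurotrophin (chr2:109674700-109727043), was far more abundant and rose less, at 1212 and 1200.0 CPM against 647, 797 and 413 CPM (0.96 ± 0.18, adjusted p = 0.00073). In all of these the lowest Bic library lay above the highest basal library. Nptx1, a related pentraxin, was at 153 and 124 CPM against 57.3, 76.7 and 64.1 CPM (1.09 ± 0.20, adjusted p = 0.00059). The prohormone convertase Pcsk1 rose by 0.84 ± 0.17 (adjusted p = 0.0017), Penk, the enkephalin precursor, by 0.82 ± 0.21 (adjusted p = 0.016), and Nrn1, neuritin, by 0.79 ± 0.24 (adjusted p = 0.0498).

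Other large or abundant rises lay outside these lists. Acan, aggrecan, the main proteoglycan of perineuronal nets (chr7:79053226-79115099), was at 147 and 131 CPM in Bic against 26.1, 52.1 and 22.7 CPM (2.06 ± 0.23, adjusted p = 1.1e-07). Gm31740, Rprml, a paralog of the cell cycle inhibitor reprimo, and Abhd2, a lipid hydrolase, rose by 2.21 ± 0.36, 2.14 ± 0.31 and 2.01 ± 0.38. The most abundant rise was Nnat, neuronatin, a small membrane protein of the endoplasmic reticulum, at 6097 and 6197 CPM against 2749, 3475 and 2916 CPM (1.01 ± 0.12, adjusted p = 3.8e-07). Sgk1, a kinase that regulates ion channels, was at 849 and 1026 CPM against 291, 414 and 299 CPM (1.48 ± 0.17, adjusted p = 1.5e-07). Ptpn12, a tyrosine phosphatase, was at 2014 and 2048 CPM against 1035, 1218 and 997 CPM (0.91 ± 0.12, adjusted p = 1.8e-06), and Pou3f1, a POU factor of cortical projection neurons, was at 170.0 and 181 CPM against 48.1, 69.2 and 51.2 CPM (1.64 ± 0.19, adjusted p = 2.7e-07). Both groups were well separated in each of these genes. As a class the rises held 13 long noncoding RNAs of 289 (4.50%, against 3.74% of tested genes), and their median basal level was 38.1 CPM against 23.2 CPM for all tested genes. Their median genomic length was 23.2 kb, that of the falls 26.1 kb and that of all tested genes 25.5 kb.

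**Figure D3:**
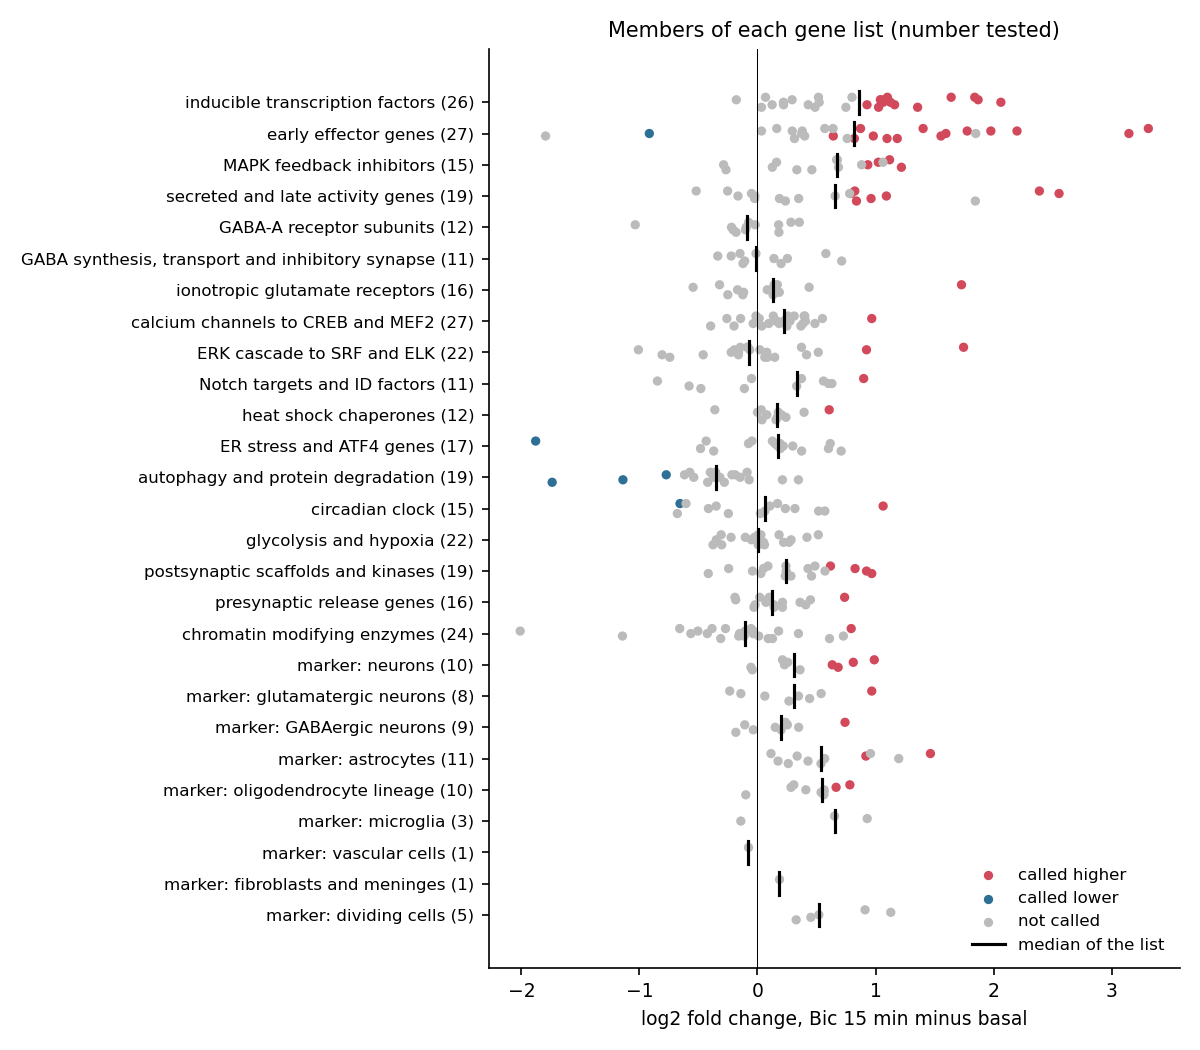
Log2 fold change, Bic 15 min minus basal, of each tested member of 18 gene lists and 9 marker lists, with the number tested in parentheses. Red and blue points are members called higher and lower, grey points those not called and black ticks list medians, which were highest, among the lists that are not cell type markers, in inducible transcription factors (0.86) and early effector genes (0.82).

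The lists for the drug's target and for the path from the synapse to the nucleus held 0 or 1 called member each, against 3.42% of all tested genes, and nothing is read from shares this near to that of all genes. Of 12 tested GABA-A receptor subunits, 0 were called, and the median was -0.08. Gabra2 was at 860.5 and 942 CPM against 744, 721 and 646 CPM (0.35 ± 0.12, adjusted p = 0.079). Of 11 genes of GABA synthesis, transport and the inhibitory synapse, 0 were called. The lowest adjusted p among them was 0.0038, in a member that changed less than 1.5-fold. Gad1, a GABA-synthesizing enzyme, and Nlgn2, the neuroligin of inhibitory synapses, did not pass (0.20 ± 0.13 with adjusted p = 0.47, and -0.34 ± 0.12 with adjusted p = 0.11). Of 16 ionotropic glutamate receptor genes 1 was called, the NMDA receptor subunit Grin2c, at 14.1 and 10.8 CPM against 4.30, 4.84 and 2.27 CPM (1.73 ± 0.39, adjusted p = 0.0053). Of 27 genes from calcium channels to CREB and MEF2 1 was called, Camk2a, the alpha subunit of CaM kinase II, at 306 and 376 CPM against 154, 211 and 156 CPM (0.97 ± 0.27, adjusted p = 0.029). The glutamate receptor list had 0 calls without Bic replicate 2, and the calcium list had 0 without basal replicate 1, basal replicate 5 or Bic replicate 3. The list of GABA synthesis had 1 without any one of these last 3 libraries.

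Among synaptic genes the called members were higher. Of 19 postsynaptic scaffolds and kinases 4 were called higher and 0 lower, with a median of 0.25, and without Bic replicate 3 there were 2. Beside Camk2a they included Nrgn, neurogranin, which binds calmodulin, at 2127 and 2390.2 CPM against 1429, 1365 and 1616 CPM (0.62 ± 0.12, adjusted p = 0.0014), and the scaffold Dlgap3, at 169 and 166 CPM against 89.4, 103 and 91.4 CPM (0.83 ± 0.17, adjusted p = 0.0019). Of 16 presynaptic release genes 1 was called, the vesicle protein Sv2b (0.74 ± 0.17, adjusted p = 0.0062), and Snap25, a membrane fusion protein, passed the adjusted p with a change under 1.5-fold (0.36 ± 0.10, adjusted p = 0.029). Other lists held 1 called member each, namely Id2, an inhibitor of bHLH factors, among 11 Notch targets and ID factors (0.90 ± 0.17), Hsph1 among 12 heat shock chaperones (0.61 ± 0.13), and Tet3, a 5-methylcytosine dioxygenase, among 24 chromatin modifying enzymes (0.79 ± 0.19). These single calls, like that of Sv2b, are shares near the 3.42% of all tested genes, and nothing is read from them for the lists. Without Bic replicate 2 the presynaptic, chaperone and chromatin lists had 0 calls. The chaperone list also had 0 without basal replicate 1 or 5, and the presynaptic list had 0 without basal replicate 5 and 2 without Bic replicate 3. Of 22 genes of glycolysis and hypoxia 0 were called (median 0.01), and 1 without basal replicate 2. For Aldoa, an abundant member, the value was 0.28 (adjusted p = 0.27).

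The falls lay mostly outside the lists. Crebrf, a negative regulator of the stress factor CREB3, was at 11.5 and 13.5 CPM in Bic against 36.4, 31.3 and 49.3 CPM, a 3.18-fold fall (-1.67 ± 0.27, adjusted p = 0.00012). Ccdc28a, a coiled-coil protein, was at 12.6 and 17.1 CPM against 43.6, 45.0 and 43.6 CPM, a 3.10-fold fall (-1.63 ± 0.25, adjusted p = 4.7e-05). Car6, a secreted carbonic anhydrase, was at 3.70 and 8.10 CPM against 18.6, 16.4 and 28.8 CPM (-2.02 ± 0.49, adjusted p = 0.012). In each of these genes the highest Bic library lay well below the lowest basal library. Slc1a6, a glutamate transporter, was at 2.59 and 2.70 CPM against 10.03, 13.8 and 4.93 CPM (-1.85 ± 0.53, adjusted p = 0.034), with a narrower gap. Cep83os was at 5.56 and 9.90 CPM against 23.2, 17.5 and 30.3 CPM (-1.75 ± 0.32, adjusted p = 0.00045). It is named for the opposite strand of Cep83, and since the use of strand in counting is not given in the sources used here, its reads cannot be told from those of its partner. Arid5a, an RNA-binding regulator of inflammatory transcripts, was at 6.67 and 5.40 CPM against 17.5, 15.3 and 22.7 CPM (-1.55 ± 0.36, adjusted p = 0.0065). The rest of the 12 largest falls, Bnip5, Xylb, Gm30140, Fam13a, P2rx3 and Tasp1, lay between -1.69 and -1.50.

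Genes of autophagy and protein degradation leaned downward. Of 19 tested members 3 were called lower and 0 higher, against 1.01% and 2.4% of all tested genes. A negative log2 fold change was seen in 17, and the median was -0.35 against -0.01 over all tested genes. The list was chosen with earlier results of these data known, and the study names Ufl1, Stbd1 and Ulk1 among downregulated genes. The lean of the list is therefore no separate support for a fall of the class. Only 1 member was called without basal replicate 1, and likewise without Bic replicate 2 or Bic replicate 3. Atg13, a subunit of the ULK kinase complex that starts autophagy, was at 66.7 and 70.2 CPM in Bic against 118, 101 and 130.4 CPM (-0.77 ± 0.16, adjusted p = 0.0028). Ufl1, the ligase for the ubiquitin-like UFM1, was at 9.63 and 7.202 CPM against 22.6, 17.5 and 17.8 CPM (-1.14 ± 0.31, adjusted p = 0.027), and Stbd1, a glycogen-binding protein of selective autophagy, was at 2.59 and 5.40 CPM against 10.03, 13.4 and 12.5 CPM (-1.74 ± 0.50, adjusted p = 0.034). Bic and basal libraries were apart in all 3 genes. Atg12, which is conjugated to ATG5, and Ulk1, the initiating kinase, passed the adjusted p with changes under 1.5-fold (-0.57 ± 0.12 with adjusted p = 0.0019, and -0.54 ± 0.14 with adjusted p = 0.021), while Map1lc3b, the LC3 protein of autophagosomes, did not pass (-0.32 ± 0.11, adjusted p = 0.1). Of 17 genes of ER stress and ATF4, 1 was called, Derl3, which was lower (-1.88, adjusted p = 0.039). In the circadian list of 15 genes, Per2, a repressor of the clock, was higher at 22.6 and 24.3 CPM against 8.88, 14.9 and 9.86 CPM (1.06 ± 0.31, adjusted p = 0.041), and Nr1d2, a clock nuclear receptor, was lower at 97.8 and 81.9 CPM against 149.8, 131 and 150.1 CPM (-0.66 ± 0.16, adjusted p = 0.0099). The circadian list had 0 calls without either Bic library and 1 without basal replicate 1 or 5. The ER stress list had 0 without any one library but basal replicate 2. With all libraries the called shares were 13.3% (circadian) and 5.88% (ER stress), against 3.42% of all tested genes, and nothing is read from them.

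The cultures carried neuronal markers at high levels and markers of other cells at lower ones, and glial markers leaned upward in the Bic libraries. All 10 neuron markers were detected, and their summed level was 9739 to 10392 CPM in Bic and 8535 to 9231 CPM in basal libraries. Of these, 4 were called higher, namely Nefm (0.99 ± 0.20), Tubb3 (0.81), Rbfox3 (0.63) and Nefl (0.68), the first and last being neurofilament subunits, and without Bic replicate 2 there were 2. Of 8 markers of glutamatergic neurons 1 was called (Camk2a, above; median 0.31, summed level 1593 to 1801 CPM against 1212 to 1410 CPM), and of 9 tested markers of GABAergic neurons 1 was called (Vip, 0.74 ± 0.20; median 0.20, summed level 5834 to 5958 CPM against 4481 to 5423 CPM). Neither list had a call when a library other than basal replicate 2 was left out. All 11 astrocyte markers had positive values and 2 were called higher, with a median of 0.54 and a summed level of 4553 to 4869 CPM in Bic against 2638 to 3241 CPM in basal libraries. Gfap, the astrocyte intermediate filament, was at 326 and 375 CPM against 102, 195 and 83.0 CPM (1.46 ± 0.23, adjusted p = 6e-05), and Aldoc, aldolase C, was at 1729.8 and 1697 CPM against 930.0, 950.4 and 840.4 CPM (0.92 ± 0.14, adjusted p = 6e-05). Kcnj10, the potassium channel Kir4.1 of astrocytes, which was not on the list, was at 167 and 153 CPM against 58.7, 75.5 and 39.4 CPM (1.47 ± 0.24). Slc1a2, the main glial glutamate transporter, passed the adjusted p with a change under 1.5-fold (0.57 ± 0.14, adjusted p = 0.015). Over all tested genes 2.4% were called higher, beside 4 of 10 neuron markers and 2 of 11 astrocyte markers. The part of these shifts in the results above was not tested.

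Oligodendrocyte lineage markers also leaned upward, with 2 of 10 called higher, Olig1 at 279 and 266 CPM against 158, 214 and 105 CPM (0.78 ± 0.19, adjusted p = 0.013) and the precursor proteoglycan Cspg4 (0.67 ± 0.19, adjusted p = 0.036). Over all tested genes 2.4% were called higher. The number of these markers called was 0 without Bic replicate 2 or basal replicate 5, 1 without basal replicate 1 and 4 without basal replicate 2. The summed level of the oligodendrocyte lineage markers was 1335 to 1436 CPM in Bic and 823 to 1270 CPM in basal libraries. Of 5 markers of dividing cells 0 were called (median 0.52, 53.1 to 78.2 CPM against 35.6 to 50.4 CPM). Low counts here need not mean absence, as Gapdh and Hspa8, genes of most cells, had at most 5 and 0 counts in these libraries. Markers of microglia, vascular cells and fibroblasts had low counts. Their summed levels in Bic and basal libraries were 27.8 to 37.8 against 27.5 to 31.5 CPM for microglia, with 1 of 8 markers at 0 in all 5 libraries. For vascular cells they were 6.30 to 14.1 against 8.88 to 14.8 CPM with 0 of 6 markers at 0, and for fibroblasts and meninges 18.9 to 18.9 against 13.02 to 17.4 CPM with 0 of 5 markers at 0.

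The response was next set beside the later time points of the same drug. Bic at 45 and 180 min had 2 libraries each, and all times were compared with the same 3 basal libraries, so their fold changes share that error. The median log2 fold change of the 289 genes higher at 15 min was 0.96 at 15 min, 0.95 at 45 min and 0.42 at 180 min. For the 122 genes lower at 15 min it was -0.90, -0.73 and -0.25. Both Bic libraries of 180 min carry the name letter A and all Bic libraries of 15 and 45 min carry B, so for every 180 min value the time and the letter cannot be told apart. Since these genes were chosen by their change at 15 min, the first value of each series is larger by that choice. Compared directly, 17 genes (0.141% of tested genes) differed between 15 and 45 min, 16 lower at 15 min (0.133%) and 1 higher (0.00831%). The count was 10 without Bic 15 min replicate 3 and 11 without Bic 45 min replicate 2.

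The 16 genes that were lower at 15 than at 45 min were mostly classical IEGs. Arc stood at 363 and 243 CPM at 15 min, at 1096 and 1474 CPM at 45 min and back at 308 and 258 CPM at 180 min, and the difference between 15 and 45 min was -2.07 ± 0.18 (adjusted p = 3.3e-10). Npas4 stood at 668 and 766 CPM at 45 min and at 647 and 566 CPM at 180 min (-1.53 ± 0.16, adjusted p = 8.6e-08). Fos reached 261 and 267 CPM at 45 min and held 225 and 213 CPM at 180 min (-1.48 ± 0.22, adjusted p = 0.00013). The peak of Arc was therefore followed by a return toward its level at 15 min, while Npas4 and Fos at 180 min were still above both libraries of 15 min. The differences between 15 and 45 min for Junb (-1.56 ± 0.24), Fosb (-1.43 ± 0.22), Egr4 (-1.56 ± 0.18), Egr1 (-0.96 ± 0.21), Gadd45g (-1.14 ± 0.20), Ccn1 (-1.64 ± 0.34), Arl4d (-1.82 ± 0.34), Dusp1 (-0.93 ± 0.20), Gm13889 (-0.95) and Gm34921 (-1.12) were of the same direction.

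The remaining 3 IEGs did not pass the test against basal at 15 min and were higher at 45 than at 15 min. Btg2 was at 179 and 194 CPM at 45 min and at 76.0 and 65.0 CPM at 180 min (difference between 15 and 45 min -1.76 ± 0.21, adjusted p = 1e-06). Ier2 was at 132 and 147 CPM at 45 min (-1.47 ± 0.23, adjusted p = 0.00031). Jun, level with basal at 15 min, was at 540.4 and 728 CPM at 45 min (-0.82 ± 0.16, adjusted p = 0.0096).

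Other leading rises did not pass the test of 15 against 45 min. Nptx2 was at 581 and 477 CPM at 15 min, 349.6 and 628 CPM at 45 min and 285 and 272 CPM at 180 min, and the difference between 15 and 45 min was 0.12 ± 0.22 (adjusted p = 0.96). Inhba was at 159 and 214 CPM at 45 min and at 149.9 and 115 CPM at 180 min (-0.32, adjusted p = 0.83). Acan was at 55.9 and 115 CPM at 45 min, below both libraries of 15 min, and at 46.1 and 50.1 CPM at 180 min (0.69 ± 0.24, adjusted p = 0.52). A p that misses the threshold does not show equal levels, and the libraries of 45 min differed from each other in these genes. Krt6a was at 129 and 364 CPM at 45 min and had fallen to 43.4 and 39.7 CPM at 180 min. Sgk1 was at 852 and 1179 CPM at 45 min and 869 and 891 CPM at 180 min, and Nnat was at 5956 and 6768 CPM and then 4249 and 4119 CPM. Bdnf stayed high, at 1059 and 1516 CPM at 45 min and 1446 and 1307 CPM at 180 min. Among the falls, Crebrf was at 17.02 and 10.2 CPM at 45 min and at 32.7 and 37.3 CPM at 180 min, inside its basal range. Ccdc28a was at 7.42 and 11.8 CPM and then 31.1 and 33.6 CPM, still under its lowest basal library.

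**Figure D4:**
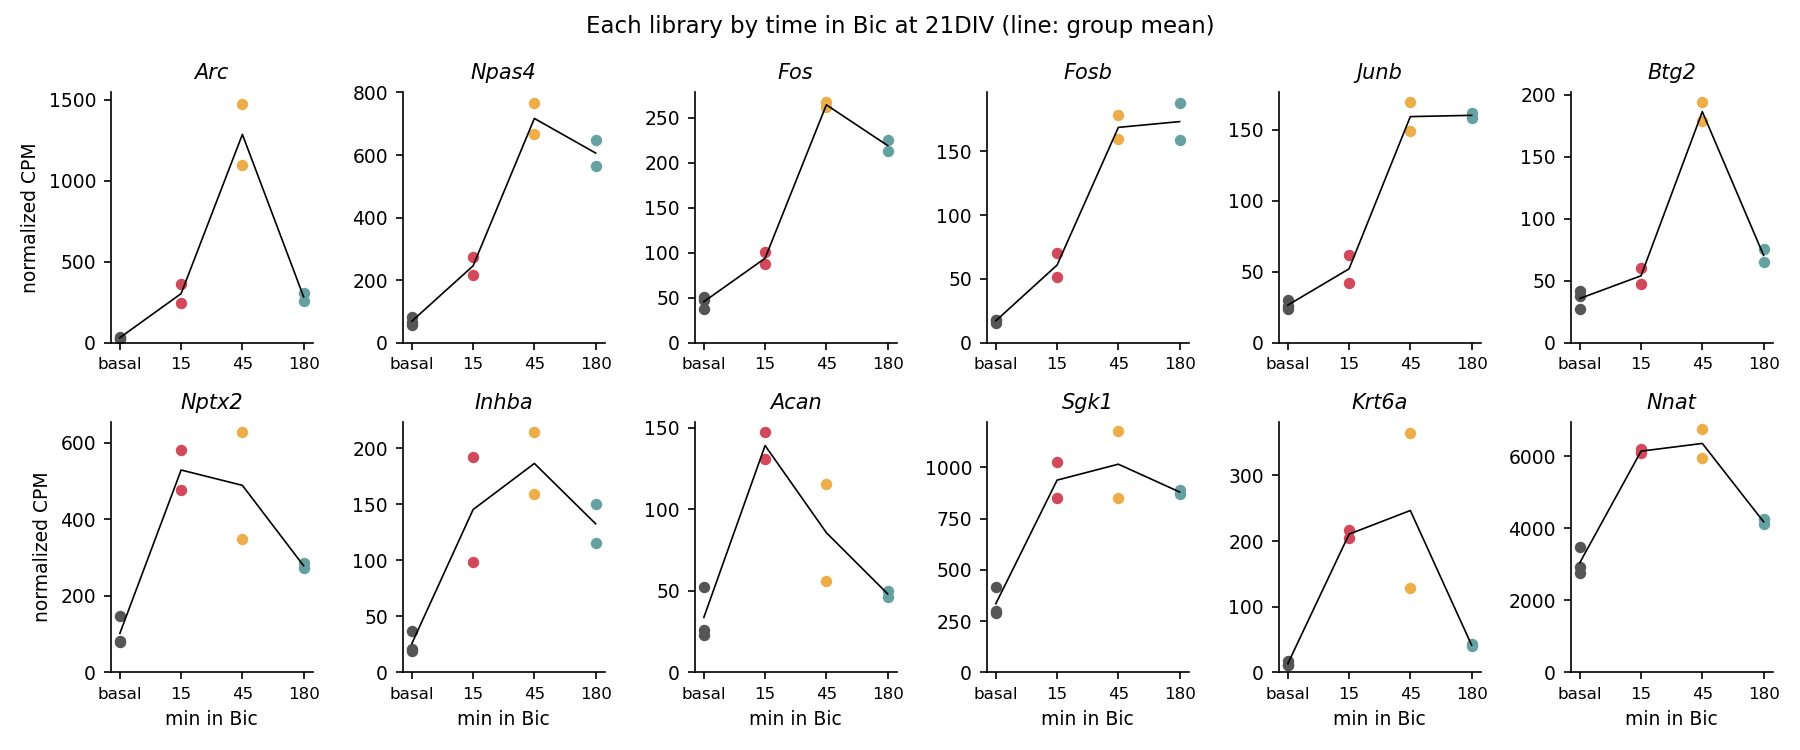
Normalized CPM of 12 genes in each library at basal and after 15, 45 and 180 min in Bic (horizontal axis, evenly spaced and not to scale; vertical axes differ between panels and start at 0). Points are libraries and lines join group means, and Arc, Npas4, Fos, Fosb, Junb and Btg2 rise from 15 to 45 min, while Nptx2, Sgk1, Krt6a and Nnat at 15 min lie within or near the spread at 45 min and Acan lies above it.

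Depolarization with KCl (55 mM) for 15 min asked whether a stimulus that opens voltage-gated channels directly gives another early response. Between Bic and KCl at 15 min, with 2 libraries each, 0 of 12027 genes were called by edgeR's quasi-likelihood test, 553 genes had an unadjusted p under 0.05, and DESeq2 called 1 gene. The smallest adjusted p was 0.152. Set beside each other against the shared basal libraries, the 289 rises had a median of 0.96 in Bic and 0.96 in KCl. For the 122 falls it was -0.90 and -0.70. These genes were chosen by their change in Bic, so the Bic medians are larger by that choice, and KCl shares the basal error. The libraries of both stimuli carry the name letter B. In simulated data the direct test called 52.2% of 2-fold and 15.2% of 1.5-fold changes, so 0 calls do not show equal responses. Arc was at 325 and 399 CPM in KCl (Bic minus KCl -0.24 ± 0.17), and Npas4 was at 205 and 208 CPM. Glial markers leaned upward in KCl too. Against basal, the median of astrocyte markers was 0.47 in KCl and 0.54 in Bic. That of oligodendrocyte lineage markers was 0.53 in KCl and 0.55 in Bic. Differences of some size were those of Ccn1, at 2.84 and 6.55 CPM in KCl against 21.9 and 14.4 CPM in Bic (1.95 ± 0.44, adjusted p = 0.15), Krt6a, at 435 and 464 CPM against 204 and 217 CPM (-1.10 ± 0.25, adjusted p = 0.15), and Egr4, at 35.8 and 36.8 CPM against 77.0 and 63.9 CPM (0.98 ± 0.20, adjusted p = 0.15). None of these 3, chosen after their values were seen, passed the threshold. The libraries of the stimuli did not overlap in them. Of all tested genes, 15% had both Bic libraries above both KCl libraries and 18.1% had both below, so this sets the 3 apart little.

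An independent set of libraries held bicuculline with a potassium channel blocker. Neurons labelled 23 DIV were given Bic (50 µM) with 4-aminopyridine (2.5 mM) for 15 min (2 libraries) and were compared with their own 3 basal libraries, which are not those used above. Here the age, the added blocker and the experiment differ together, so that a difference between the experiments has no single source. Of 11746 genes tested, 6 (0.0511%) were called higher and 0 lower, with 621 at an unadjusted p under 0.05. They were Arc (1.98 ± 0.36, adjusted p = 0.011), Npas4 (1.86 ± 0.33, adjusted p = 0.011), Fos (2.01 ± 0.33, adjusted p = 0.0045), Junb (2.04 ± 0.24, adjusted p = 2.8e-05), Ccn1 (3.46 ± 0.43, adjusted p = 3.1e-05) and Ier2 (1.73 ± 0.31, adjusted p = 0.011). Of these 6, 5 (83.3%) were among the 289 rises of Bic alone, of which they made 1.73%, and Ier2 was the exception. The count was 2 without basal replicate 2 of that experiment, 3 without basal replicate 3 and 3 without replicate 2 of the treated group. Counts on genes were 1784170 and 2963633 in the treated libraries and 5676665, 5578041 and 9254444 in the basal libraries. Basal replicate 3 carries the name letter D and the others C. In simulated data this test called 43.8% of 2-fold and 14.9% of 1.5-fold changes, so the low count does not show a smaller response.

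Nptx2 and Krt6a were not called in that experiment, and the difference between the experiments was not tested. Nptx2 was at 98.2 and 92.7 CPM with Bic and 4-aminopyridine against 105, 102 and 113 CPM in basal libraries (-0.16 ± 0.30), and Krt6a was at 6.28 and 1.72 CPM against 3.29, 2.50 and 2.21 CPM. Arc rose there from 75.7, 80.7 and 98.8 CPM to 374 and 298 CPM. Of the 284 rises of Bic alone that were tested there, 186 (65.5%) had a positive log2 fold change, against 49.1% of the 11289 genes tested in both experiments. Of 120 such falls, 72 (60%) had a negative one, against 50.9%.

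Promoter sequences of GRCm38 from RefSeq, from 250 bases before to 50 after the transcript start, were searched on both strands for letters of factors known in this response. The motifs were TGACGTCA (CRE, bound by CREB), the CArG box (bound by SRF), TGANTCA (AP-1), GCGNGGGCG (EGR factors) and TATAAA (the core promoter box that places the start), and no matches overlapped in the promoters shown. The table held 295 promoters for 213 of the 289 rises and 126 for 100 of the 122 falls. CRE letters stood in 4.07% of promoters of rises, 2.38% of falls and 3.13% of the 12438 promoters of tested genes. AP-1 letters stood in 8.47%, 3.17% and 4.9%, TATA letters in 12.5%, 3.97% and 7.19%, EGR letters in 11.9%, 15.9% and 11%, and the CArG box in 0.678%, 3.97% and 1.23%. These shares describe the windows and were not tested, and over all 32851 promoters of the table they were 1.79% for CRE, 7.81% for AP-1, 13.6% for TATA, 5.55% for EGR and 1.63% for the CArG box.

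Of the promoters of the 6 largest rises with an entry on the table, 1 held any of these letters, that of Serpinb2, a serine protease inhibitor induced by synaptic activity. Serpinb2 was near the limit of detection, with 11 and 3 counts in Bic and 0, 2 and 0 counts in basal libraries, so no fold is given. The promoters of Fos, Srf, Inhba, Dusp1 and Btg2, chosen after their values were seen, show the letters in genes described above. Capitals mark the matches, offsets are counted from the transcript start, and a match is a description of the sequence, not an occupied site. In Serpinb2 (chr1:107511173-107511472, plus strand) AP-1 letters began at -94 and TATA letters at -29, and in Fos (chr12:85473640-85473939, plus strand) TATA letters began at -33. In Btg2 (chr1:134079106-134079405, minus strand) CRE letters began at -166 and EGR letters at -131, and in Dusp1 (chr17:26508423-26508722, minus strand) CRE letters began at -143. In Srf (chr17:46556113-46556412, minus strand) a pair of CArG boxes began at -82 and -62, EGR letters at -101 and TATA letters, on the opposite strand, at -38. In Inhba (chr13:16011601-16011900, plus strand), the start lies inside the gene's span and TATA letters began at -91.
Serpinb2: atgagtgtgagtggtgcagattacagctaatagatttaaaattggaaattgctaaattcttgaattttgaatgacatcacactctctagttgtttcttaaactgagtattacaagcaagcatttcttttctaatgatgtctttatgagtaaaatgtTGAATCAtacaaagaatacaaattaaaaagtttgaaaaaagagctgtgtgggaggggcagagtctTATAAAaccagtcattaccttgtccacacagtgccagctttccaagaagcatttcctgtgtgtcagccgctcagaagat
Fos: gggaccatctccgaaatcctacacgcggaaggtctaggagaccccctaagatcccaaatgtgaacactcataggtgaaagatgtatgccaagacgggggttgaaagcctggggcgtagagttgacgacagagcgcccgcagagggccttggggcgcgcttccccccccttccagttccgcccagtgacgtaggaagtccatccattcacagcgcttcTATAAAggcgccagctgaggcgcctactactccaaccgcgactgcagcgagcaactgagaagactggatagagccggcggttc
Btg2: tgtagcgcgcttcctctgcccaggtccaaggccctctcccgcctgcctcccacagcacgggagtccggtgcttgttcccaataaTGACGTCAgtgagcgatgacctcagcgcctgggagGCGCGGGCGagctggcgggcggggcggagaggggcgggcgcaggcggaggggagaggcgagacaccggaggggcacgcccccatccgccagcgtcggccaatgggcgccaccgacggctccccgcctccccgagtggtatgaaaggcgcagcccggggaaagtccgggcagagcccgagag
Dusp1: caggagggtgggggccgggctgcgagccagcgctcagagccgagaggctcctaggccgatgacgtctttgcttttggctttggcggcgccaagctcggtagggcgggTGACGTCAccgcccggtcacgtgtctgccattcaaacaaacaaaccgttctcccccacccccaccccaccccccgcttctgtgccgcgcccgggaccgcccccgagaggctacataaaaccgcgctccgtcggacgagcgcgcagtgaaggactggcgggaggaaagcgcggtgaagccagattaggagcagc
Srf: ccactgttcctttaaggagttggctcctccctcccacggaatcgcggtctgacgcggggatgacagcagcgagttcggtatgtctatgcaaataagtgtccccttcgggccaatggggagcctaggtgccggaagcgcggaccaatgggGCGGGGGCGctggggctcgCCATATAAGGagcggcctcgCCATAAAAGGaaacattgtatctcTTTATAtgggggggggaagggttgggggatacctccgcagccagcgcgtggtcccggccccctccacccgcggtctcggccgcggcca
Inhba: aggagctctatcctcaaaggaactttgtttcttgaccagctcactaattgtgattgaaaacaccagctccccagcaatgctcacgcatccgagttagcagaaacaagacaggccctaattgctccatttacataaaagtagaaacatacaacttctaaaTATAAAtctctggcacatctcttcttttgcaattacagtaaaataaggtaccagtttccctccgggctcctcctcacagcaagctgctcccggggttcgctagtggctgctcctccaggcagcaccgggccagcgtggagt
Read against the values, Btg2 and Dusp1, which hold the full CRE letters, changed by 0.64 ± 0.21 and 0.93 ± 0.19 at 15 min, and Srf, which holds the CArG boxes, by 0.93 ± 0.20. Inhba, with none of the letters but TATA, changed by 2.55 ± 0.24, and Fos, likewise, by 1.06 ± 0.21. Only exact matches inside the window were counted, and the Fos window holds tgacgtag, which departs from the CRE letters at its end. A gene without a match may therefore hold variant sites, or sites outside the window. These 5 genes are too few for a comparison.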

How the data were processed

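Primary mouse neurons were profiled in 55 samples, 27 in the stimuli experiment and 28 in the maturation experiment, and groups and replicates were taken from the sample labels. Per the study's methods, CEL-Seq2 libraries of 3′ ends were aligned with STAR (mm10), and the End Sequence Analysis Toolkit did the counting. The authors deposited raw whole-number counts, with a row for each RefSeq transcript and no normalization. Tool versions, and whether reads sharing a molecular identifier were collapsed, are not given in the sources used here. Symbols came from RefSeq's GRCm38 annotation for 80.9% of the 96722 transcripts, and the rest, with 19.2% of counts, stayed out. The transcript with the most counts stood for each of 28216 genes, because transcripts with a shared 3′ end repeat counts (the sum over transcripts was 3.29 times that count).

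Genes had to exceed 5 CPM in 2 or more samples. They were scaled by TMM and tested with edgeR 4.0.16 (quasi-likelihood test, Benjamini-Hochberg) in R 4.3.3, in 1 fit over the 27 samples. Standard errors came from the F statistic. The maturation comparison used its own fit. Over these 5 libraries the TMM factors were 0.947 to 1.01. Spread between replicates exceeded counting error, the chi-square divided by its degrees of freedom being 2.72 to 3.87, so depth alone does not set the precision. DESeq2 1.42.0 was an alternative, beside a likelihood ratio test, RLE factors, other filters, thinned or summed counts, fits on fewer groups, the letter of the library name, the replicate block and leaving out libraries. The tests were tested on simulated data. Motifs and plots used Python 3.11.15, pandas 2.3.3, numpy 2.4.6 and matplotlib 3.10.9.

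Named genes were the 12 largest rises and 12 largest falls without overlap at an average log2 CPM of at least 3, up to 6 called and the 2 most abundant members of each list, a set list of IEGs, and the 3 largest differences each way in other comparisons. Ppp1r15a, Nnat, Sgk1, Ptpn12, Pou3f1, Kcnj10, Atg12, Ulk1, further called members of the first 2 lists, the genes named as different between Bic and KCl or between Bic times, and 5 promoters were chosen after their values were seen. Members and lists were chosen with earlier results of these data known. A few genes that this rule covers are not reported here.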

Additional observations from a re-analysis of the deposited data

Results flagged for a closer look

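The effects of Bic at 15 and 45 min differed by a test of the difference itself in 17 genes, of which 16 are given here on the log2 scale of 15 min minus 45 min. Among inducible transcription factors these were Npas4 (-1.53), Egr4 (-1.56), Fos (-1.48), Junb (-1.56), Fosb (-1.43), Jun (-0.82) and Egr1 (-0.96). Among other early genes they were Arc (-2.07), Btg2 (-1.76), Ier2 (-1.47), Gadd45g (-1.14), Arl4d (-1.82), Ccn1 (-1.64), Dusp1 (-0.93), Gm13889 (-0.95) and Gm34921 (-1.12).

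Transcripts without a gene symbol stood outside the comparisons. Of 5819 that passed the filter, 167 differed between Bic at 15 min and basal, with 118 rises and 49 falls (the same edgeR test). This is 2.87% of those tested, and the transcripts are not identified further here. Groups of 2 and 3 libraries are too small for a test of single outlying libraries.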

How the results depend on the processing

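The comparison of Bic at 15 min with basal called 411 genes (289 higher, 122 lower). Leaving out 1 library gave 136 to 436 genes (121 to 303 higher, 15 to 133 lower), with the lowest counts without Bic replicate 2. Genes lower were 204 by the likelihood ratio test, 59 with counts thinned to the smallest library and 80 with counts summed over transcripts. With only the basal library that shares the letter B with the Bic libraries, 261 genes were called (182 higher, 79 lower). The share of calls that were higher was 70.3%, against 62.6% by the likelihood ratio test and 79.4% with thinned counts. With the replicate number as a block, 199 genes were called (153 higher, 46 lower), of which 187 were among the 411. By the sample titles the groups share only replicate number 2, and nothing in the labels ties the numbers. Basal replicate 5 has that number in its title but 2 in its library name, and the title was used. The lists other than cell type markers had 57 called members, 33 with the letter as a term and 26 to 54 with a library left out. Between Bic at 15 and 45 min, 17 genes were called (1 higher, 16 lower). There were 29 (3 and 26) by the likelihood ratio test, 45 (6 and 39) without a filter and 6 (0 and 6) with summed counts. Genes higher were 3 by DESeq2, 0 with thinned counts and 0 with the replicate block. Leaving out 1 library gave 10 to 22 genes (0 to 2 higher, 9 to 22 lower). Between Bic and KCl, 0 genes became 7 (3 and 4) by the likelihood ratio test, 1 (1 higher) by DESeq2, 20 (8 and 12) without a filter, 1 (1 lower) with the compared groups only, and 0 to 1 with a library left out. With Bic and 4-aminopyridine, 6 genes became 38 (31 and 7) without a filter, 1 was lower by the likelihood ratio test, and 2 to 4 were called with a library left out. Jun (0.03) turned to -0.16 with the letter as a term and -0.16 with only the B basal library, and ran from -0.0236 to 0.141 with a library left out. The causes were not tested. The Bic group has 2 libraries, 1 of them shallow at 1177500 counts, which limits calls of low genes.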
